A study of Rattus norvegicus with 6 samples.

Results

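The genes described here mark the thick ascending limb of the loop of Henle and the distal convoluted tubule, the nephron segments between the loop and the collecting duct. They are 9 genes chosen by name: Umod, Egf, Slc12a1, Slc12a3, Kcnj1, Cldn10, Cldn16, Trpm6 and Pvalb. A probe counted as a member when it was not a control spot and carried a RefSeq transcript of 1 of these genes. Of the 9, 7 matched a probe (13 probes), and 6 of those, with 12 probes, passed the filter on dim spots, among 15276 genes with a probe and 12007 genes tested. No probe was matched to Slc12a1 or Trpm6 through the RefSeq table, and both were not analysed here. The samples were cortex, which is the kidney's outer zone, from 6 male Sprague-Dawley (Crl:CD(SD)) rats bought at 5 weeks of age. For 4 weeks, 3 rats were given 1-amino-2,4-dibromoanthraquinone (ADBAQ, a brominated anthraquinone) at 1000 mg/kg/day and the other 3 were given corn oil, the vehicle. RNA from each rat was hybridised alone to a 1-colour Agilent array.

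The thick limb takes up sodium, potassium and chloride from the tubule fluid and is impermeable to water, so it dilutes the urine. Chloride enters with sodium and potassium through the cotransporter NKCC2 (Slc12a1), potassium returns to the lumen through the channel ROMK (Kcnj1), and the resulting lumen-positive voltage drives calcium, magnesium and sodium between the cells through pores built from claudins. The distal convoluted tubule takes up sodium chloride through NCC (Slc12a3), the target of thiazide diuretics, and magnesium through TRPM6. Uromodulin (Umod) and the epidermal growth factor precursor (Egf) are membrane-anchored proteins of these segments that are released into the urine.

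The start regions of 4 members are printed here to show what lies just before their transcription starts. Each is the 100 bases before an annotated RefSeq start, 5′ to 3′ on the gene's strand (build GRCr8), and capitals mark the motif matches found.
Cldn10 (chr15:102269758-102269857, plus strand): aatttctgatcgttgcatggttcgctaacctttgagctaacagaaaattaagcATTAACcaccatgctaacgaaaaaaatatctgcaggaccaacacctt
Kcnj1 (chr8:39037892-39037991, plus strand, 1 of 2 annotated starts): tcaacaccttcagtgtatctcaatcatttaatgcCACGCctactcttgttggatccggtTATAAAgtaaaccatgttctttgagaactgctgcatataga
Egf (chr2:220976298-220976397, minus strand): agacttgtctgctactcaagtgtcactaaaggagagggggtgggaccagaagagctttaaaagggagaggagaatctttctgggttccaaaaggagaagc
Slc12a3 (chr19:10675051-10675150, minus strand): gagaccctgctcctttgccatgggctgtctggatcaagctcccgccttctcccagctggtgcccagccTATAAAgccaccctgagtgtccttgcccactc

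In the 250 bases before each start, 5 motifs were searched on both strands. TATAAA, the TATA box, stood at -32 in Slc12a3 and at -41 in Kcnj1, counted to its first base with -1 just before the start, and 12.9% of all RefSeq windows of that length held it. GTTAAT, part of the site bound by the kidney transcription factor HNF1, stood at -47 in Cldn10 on the opposite strand, against 6.45% of all windows. GCGTG, the core that the aryl hydrocarbon receptor binds, stood at -66 in Kcnj1 on the opposite strand and at -198 in Cldn10, against 25.9% of all windows. The core TGACNNNGC of antioxidant response elements (10.1% of all windows) and AAGGTCA of estrogen-related receptors (3.99%) were in none of these 4 windows, and the Egf window held none of the 5 motifs. Member windows not printed here held matches too. GCGTG stood at -114 in Umod on the opposite strand, at -193 and -97 in Pvalb, and at -213 and -179 before the other Kcnj1 start. TATAAA stood at -219 and -173 in Umod. These matches are letters in a window and show no binding.

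None of the 6 tested members passed the test between ADBAQ and corn oil: limma with Benjamini-Hochberg adjustment over 12007 genes, at an adjusted p of 0.05, called 0 higher and 0 lower. Over all genes tested 0.291% passed, 0.225% higher and 0.0666% lower. At an unadjusted p under 0.05 there was 1 member, Cldn10, which was lower; 19.4% of all genes had such a p, 8.94% higher and 10.5% lower. Cldn10 was also the 1 member whose 3 ADBAQ arrays lay wholly apart from the 3 corn oil arrays, against 27.6% of all genes (12.7% higher, 14.9% lower), so neither share stands far from the background. The difference was above 0 for 2 of the 6 and for 47.7% of all genes. The median difference of the 6 members was -0.12 on the log2 scale, against -0.011 over all genes (lower and upper quartile -0.13 and 0.12). All 16 alternative settings likewise called 0 members. Without scaling between arrays the members with an unadjusted p under 0.05 were Egf and Kcnj1 and not Cldn10, while 4019 of all 12007 genes had such a p. With the mean of the probes of a gene they were Cldn10 and Kcnj1 (2187 of 12007 genes). Without ADBAQ replicate 3 they were Cldn10 and Egf (2107 of 12076 genes). In bulk tissue, fewer cells of a segment and less RNA per cell cannot be told apart.

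The 75th percentile of the signal was 1127 to 1179 on corn oil arrays and 1281 to 1308 on ADBAQ arrays, without overlap (a log2 difference of 0.16, which the scaling takes out of every value below), and between 69.0% and 72.3% of the probes on an array passed the scanner's background flag. Levels below are signals divided by that percentile of the same array and are called relative levels. They compare arrays for 1 probe, not 1 probe with another. By the slide numbers in the names of the deposited arrays, the 3 arrays of each group lay on 1 slide. The groups shared no slide, so slide and treatment cannot be told apart. Markers of the cortex (12 of 12 for the proximal tubule, 6 of 6 for podocytes) were measured, but so were 5 of 5 inner medulla markers, so detection alone does not tell the zones apart. Red cell markers were the marker list with calls, with 3 of 5 measured genes higher after ADBAQ (Alas2, Hbb and Hemgn; the Hbb call was lost in 5 of 16 alternatives, with adjusted p of 0.057 to 0.087 without any 1 of the corn oil arrays or ADBAQ replicate 2 and 0.11 with a replicate block) and a summed relative level of 167 to 183 in corn oil and 329 to 381 in ADBAQ. Summed levels also lay apart for proximal tubule (1950 to 2030 in corn oil, 1830 to 1930 in ADBAQ), inner medulla (24.8 to 25.7, then 20.2 to 22.1) and tubule injury markers (22.9 to 35.1, then 35.4 to 45.9), with 0 genes called. A sum leans on its strongest probes, and the inner medulla sum was mostly Krt7 (18.6 to 20.5, then 14.1 to 15.2). Of the 5 inner medulla genes, 4 had differences above 0, with a median of 0.098, so the list as a whole did not fall. Differences were below 0 for 7 of 12 proximal tubule genes and above 0 for 6 of 7 injury genes. Groups did not overlap for 4 of the 12 proximal tubule genes, all lower (14.9% of all genes). The sums of intercalated cell markers overlapped (147 to 177, then 155 to 184), with 0 genes called and a median difference of 0.188. Of these 8 genes, 4 were higher without overlap (12.7% of all genes), among them Slc4a1, which is also on the red cell list. The part of these marker lists in the results below was not tested.

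**Figure D1:**
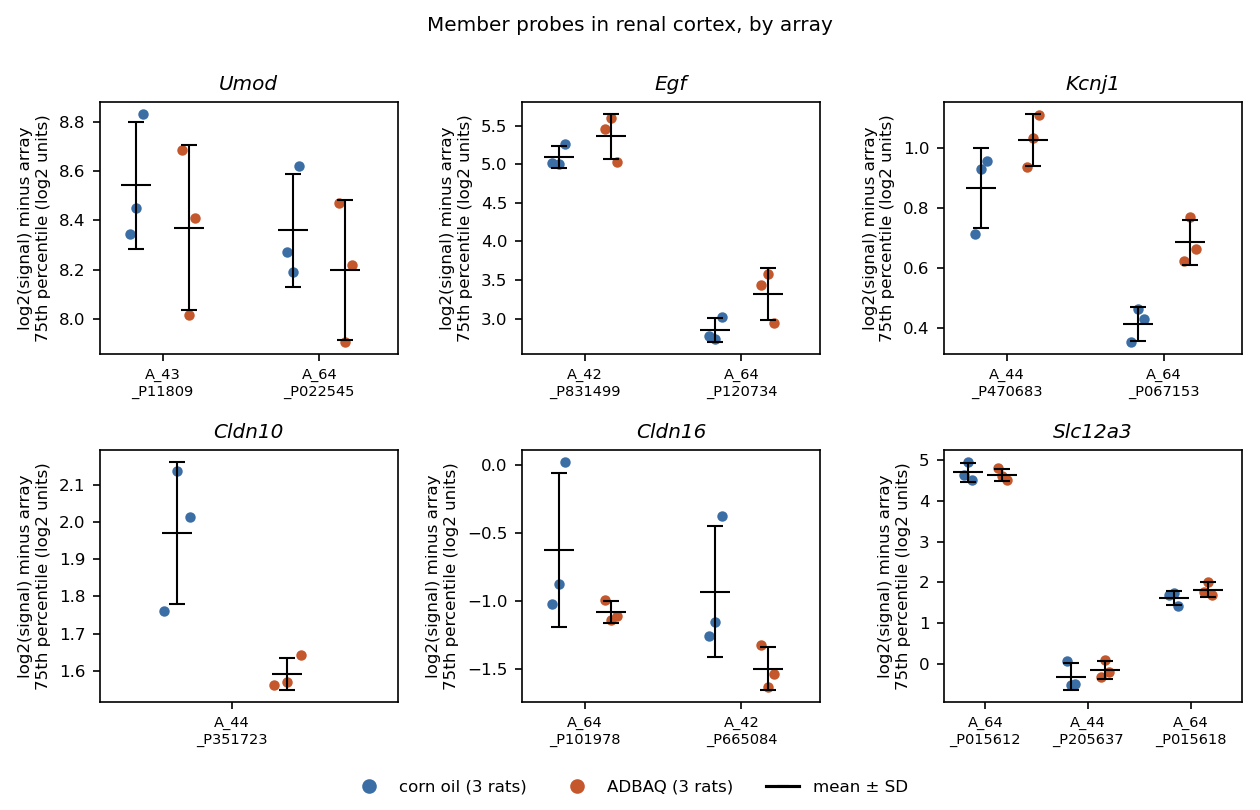
Log2 signal minus the 75th percentile of the array (log2 units, a separate axis range per gene) for each tested probe of Umod, Egf, Kcnj1, Cldn10, Cldn16 and Slc12a3, with corn oil in blue and ADBAQ in orange, 3 rats each, and bars for mean ± SD. The Cldn10 groups do not overlap, and for Cldn16 corn oil replicate 3 lies above the other 5 arrays on both probes.

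Cldn10 and Cldn16 form the paracellular pores. Claudin-10 lets sodium through between thick limb cells, and claudin-16 is needed for calcium and magnesium. The relative level of Cldn10 was 3.39, 4.39 and 4.04 in corn oil and 2.95, 2.97 and 3.12 in ADBAQ. Every ADBAQ array lay below every corn oil array, and the ADBAQ arrays were close together while the corn oil arrays were spread. The difference was -0.38 ± 0.11 SE on the log2 scale (0.769-fold, n = 3 per group, 95% confidence interval -0.64 to -0.12, limma adjusted p = 0.16), and by p it ranked 899 among 12007 genes. Cldn10 had 1 probe, and a value from bulk cortex does not show which segment's cells it came from. Without scaling between arrays the value was -0.22 (adjusted p = 0.21), a setting that moved the median of all genes from -0.011 to 0.15.

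For Cldn16 the relative levels were 0.491, 0.545 and 1.02 in corn oil and 0.504, 0.453 and 0.463 in ADBAQ on the probe that stands for the gene. Corn oil replicate 3 lay far above the rest, and the other 5 arrays lay in a narrow band in which the groups overlapped. The other probe gave 0.417, 0.449 and 0.770 in corn oil and 0.399, 0.322 and 0.345 in ADBAQ, with no overlap. The difference was -0.46 ± 0.28 SE on the first probe (95% interval -1.14 to 0.23, adjusted p = 0.41) and -0.57 ± 0.25 on the other (adjusted p = 0.29). Without corn oil replicate 3 they were -0.13 and -0.29. The size of the Cldn16 value therefore rested on 1 corn oil rat.

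Of the claudin family outside the members, 15 of 17 listed genes were tested and 0 passed in either direction. Groups did not overlap for 4 of the 15, 2 each way, against 27.6% of all genes. Their median difference was 0.084, against -0.011 over all genes. Claudin-2, the cation pore of the proximal tubule, had the smallest p, with relative levels of 6.38, 6.70 and 7.14 in corn oil and 5.45, 5.05 and 5.29 in ADBAQ. Its difference was -0.36 ± 0.068 SE (adjusted p = 0.10), and its second probe gave -0.34. For claudin-14, which blocks the claudin-16 pore, the difference was 0.43 ± 0.12 SE with an adjusted p of 0.16. Its other probe gave 1.65 ± 0.65 with overlap, the mean of both probes 1.04 and normexp 0.24, so its size is uncertain. For claudin-19, the partner of claudin-16, it was -0.24 ± 0.17 SE with an adjusted p of 0.48.

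Kcnj1 encodes ROMK, the potassium channel of the luminal membrane in the thick limb, distal convoluted tubule and collecting duct. Its 2 probes gave positive differences of unlike clarity. On the probe that stands for the gene, the relative level was 1.64, 1.91 and 1.94 in corn oil and 1.91, 2.05 and 2.16 in ADBAQ. The groups overlapped there, since the lowest ADBAQ array lay inside the corn oil range. The difference was 0.16 ± 0.091 SE (1.12-fold, 95% interval -0.062 to 0.38, adjusted p = 0.38), and it was 0.084 without corn oil replicate 1.

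On the other Kcnj1 probe the relative level was 1.28, 1.38 and 1.35 in corn oil and 1.54, 1.70 and 1.58 in ADBAQ, without overlap. Its difference was 0.27 ± 0.070 SE, with an adjusted p of 0.15 over the 42256 probes tested, of which 0.248% passed (18.5% at an unadjusted p under 0.05). It was called in 1 of 15 alternatives for the probe, the one without scaling between arrays (0.43, adjusted p = 0.041). Both probes carry the same RefSeq transcript.

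Egf encodes the precursor of epidermal growth factor, made in the thick limb and distal convoluted tubule. The relative level was 32.3, 32.1 and 38.3 in corn oil and 43.9, 48.3 and 32.6 in ADBAQ. ADBAQ replicates 1 and 2 lay above all corn oil arrays, and ADBAQ replicate 3 lay among them. The difference was 0.27 ± 0.16 SE (1.20-fold, 95% interval -0.14 to 0.67, adjusted p = 0.41). It was 0.43 without ADBAQ replicate 3 and 0.15 without ADBAQ replicate 2.

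The other Egf probe gave 6.87, 6.69 and 8.15 in corn oil and 10.8, 12.0 and 7.67 in ADBAQ, with the arrays high and low as on the first probe. Its difference was 0.47 ± 0.18 SE (adjusted p = 0.26 over all probes). The spread among the 3 ADBAQ rats, an SD of 8.10 around a mean of 41.6 on the first probe, was larger than that among the corn oil rats, an SD of 3.52 around 34.2.

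The receptors and other ligands of the EGF system were read from a list of 11 genes, of which 10 were tested and 0 passed. Groups did not overlap for 4 of the 10, 3 higher (12.7% of all genes) and 1 lower (14.9%), and the median was -0.018, against -0.011 over all genes. Egfr, the receptor that Egf activates, had the smallest p of the list. Its relative level was 1.38, 1.66 and 1.59 in corn oil and 0.95, 1.01 and 0.898 in ADBAQ, without overlap. The difference was -0.69 ± 0.092 SE (adjusted p = 0.057), with -0.84 on the other probe. It passed in 3 of 16 alternatives: without scaling, with normexp background correction and with robust variances fitted on an intensity trend.

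Among ligands of this family, Nrg1 (neuregulin 1) had relative levels of 2.18, 2.06 and 1.70 in corn oil and 3.20, 3.17 and 4.00 in ADBAQ. Its difference was 0.80 ± 0.14 SE (adjusted p = 0.084), and its other 2 probes gave 0.55 and 0.57. It passed under the same 3 alternatives as Egfr. Hbegf, the heparin-binding ligand of Egfr, had a difference of 0.45 ± 0.11 (adjusted p = 0.14), and the receptor gene Erbb4 one of -0.36 ± 0.13 (adjusted p = 0.23).

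Umod encodes uromodulin, also called Tamm-Horsfall protein, the main protein of normal urine and the classical marker of the thick limb. The relative level was 325, 350 and 456 in corn oil and 412, 259 and 340 in ADBAQ. The groups overlapped, with the highest value in corn oil replicate 3 and the lowest in ADBAQ replicate 2. The difference was -0.17 ± 0.21 SE (0.888-fold, 95% interval -0.68 to 0.34, adjusted p = 0.68), and the other probe gave -0.16 ± 0.18. Without ADBAQ replicate 2 it was 0.006 and without corn oil replicate 3 it was -0.026, so its direction was not stable to the loss of 1 rat. No Umod spot was saturated. Hpn, which encodes hepsin, the protease that releases uromodulin from the membrane and which is also made in the proximal tubule, had relative levels of 8.17, 7.51 and 7.87 in corn oil and 6.39, 6.64 and 6.68 in ADBAQ. Its difference was -0.26 ± 0.059 SE (adjusted p = 0.12). Its other probes gave -0.20 with overlap and -0.19 without overlap. Without scaling between arrays the Hpn value was -0.094 (adjusted p = 0.30).

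Slc12a3 encodes NCC, the sodium chloride cotransporter that defines the distal convoluted tubule. Its relative level was 24.8, 31.1 and 22.8 in corn oil and 27.9, 24.5 and 22.8 in ADBAQ. The groups lay on top of each other. The difference was -0.059 ± 0.14 SE (0.960-fold, 95% interval -0.40 to 0.28, adjusted p = 0.84). The other 2 probes had differences of the opposite sign, 0.17 ± 0.20 and 0.20 ± 0.13, and the mean of the 3 probes gave 0.11, so no direction can be given for Slc12a3. Without scaling it was 0.10. The related cotransporters on the list, all 7 of them tested, included 0 that passed. Of the 7, 1 was without overlap, against 27.6% of all genes, and the median was 0.009, against -0.011 over all genes. Among these, Slc12a2 (NKCC1) had a difference of 0.009 ± 0.11 SE (adjusted p = 0.97).

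Pvalb encodes parvalbumin, a calcium-binding protein of the early distal convoluted tubule. Its 1 probe was not well above background on any of the 6 arrays. Its signals ran from 3.98 to 17.8, and on each array lay below the lowest signal of any probe well above background, which was 14.6 to 23.6 across arrays. Pvalb was therefore not tested, and no difference is given. Of 4 related calcium-binding genes, 0 passed and 1 did not overlap, against 27.6% of all genes. That 1 was Calb1 (calbindin of the distal tubule), which had 1 tested probe. Its relative levels were 3.58, 3.55 and 2.89 in corn oil and 4.23, 5.81 and 4.34 in ADBAQ, a difference of 0.51 ± 0.16 SE (adjusted p = 0.18).

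**Figure D2:**
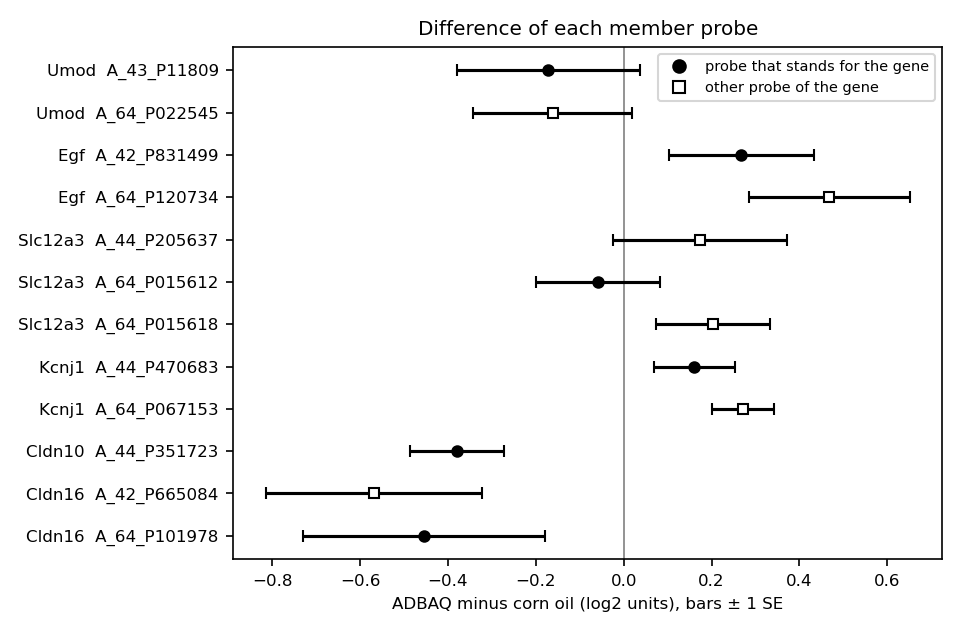
Difference in log2 signal between ADBAQ and corn oil (log2 units) for the 12 tested member probes, with bars of ± 1 SE (n = 3 per group); filled circles are the probes that stand for their genes and open squares the other probes. Cldn10 and both Cldn16 probes lie below 0, both Egf and both Kcnj1 probes lie above 0, and the 3 Slc12a3 probes lie on both sides.

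Genes that work beside the members were read from 2 lists. Of 21 thick limb companions 20 were tested, and of 23 distal convoluted tubule companions 19 were tested. In both lists 0 genes passed over all genes tested, while 5 of 20 and 3 of 19 had an unadjusted p under 0.05, against 19.4% of all genes. Groups did not overlap for 4 of 20 and 6 of 19, against 27.6%. The medians were -0.044 and 0.054, against -0.011. These shares lie near the background.

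In the thick limb list the 3 smallest p values were those of Hpn, described above, Stk39 and Cldn14. Stk39 encodes the kinase SPAK, which phosphorylates NKCC2 and NCC. Its relative level was 1.39, 1.41 and 1.21 in corn oil and 1.57, 1.72 and 1.66 in ADBAQ, a difference of 0.30 ± 0.081 SE (adjusted p = 0.16), while its other probe gave 0.062 with overlap and normexp 0.17. Barttin (Bsnd), a membrane protein of these segments, had a difference of 0.18 ± 0.15 SE (adjusted p = 0.53). Casr, the calcium-sensing receptor that restrains salt uptake in the thick limb, had relative levels of 13.7, 18.4 and 18.1 in corn oil and 14.1, 12.3 and 14.3 in ADBAQ. Its difference was -0.30 ± 0.14 SE (adjusted p = 0.30), with -0.52 on its other probe. Without scaling between arrays the Casr value was -0.13.

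In the distal convoluted tubule list the smallest p was that of Sgk1, a kinase induced by corticosteroids that raises sodium uptake in the distal nephron. Its relative level was 8.91, 10.5 and 8.52 in corn oil and 3.04, 3.33 and 4.66 in ADBAQ. The ADBAQ arrays all lay well below the corn oil arrays. The difference was -1.36 ± 0.18 SE (adjusted p = 0.055), and it passed in 4 of 16 alternatives: without scaling, with normexp, with robust variances fitted on an intensity trend, or without ADBAQ replicate 3. Sgk1 is expressed in many cells, so the value does not belong to 1 segment. It also came from 1 tested probe, so no other probe could check it.

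Next by p were Atp2b1, a calcium pump of the basolateral membrane (-0.24 ± 0.072 SE, adjusted p = 0.17, lower without overlap on each of its 4 probes), and Calb1. Without scaling between arrays the Atp2b1 value was -0.079 (limma adjusted p = 0.495). The kinases that regulate NCC, Wnk4 and Wnk1, had differences of -0.23 ± 0.094 and 0.11 ± 0.050 SE (adjusted p = 0.26 and 0.32). The other Wnk4 probe gave -0.063 ± 0.080 with overlap. The first gave -0.15 without ADBAQ replicate 3 and -0.063 without scaling between arrays. With normexp background correction the Wnk1 value was -0.019, and its other 3 probes gave -0.097 to 0.049. The calcium channel Trpv5 had a difference of 0.24 ± 0.30 SE (adjusted p = 0.69) on 1 probe and 0.71 ± 0.19 on the other (adjusted p = 0.15 over all probes). Kcnj10, the basolateral potassium channel of the distal convoluted tubule, had one of -0.18 ± 0.25 (adjusted p = 0.73). That value rests on a faint probe, with relative levels of only 0.0177 to 0.0345. No probe was matched to Klhl3, and it was not analysed here.

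**Figure D3:**
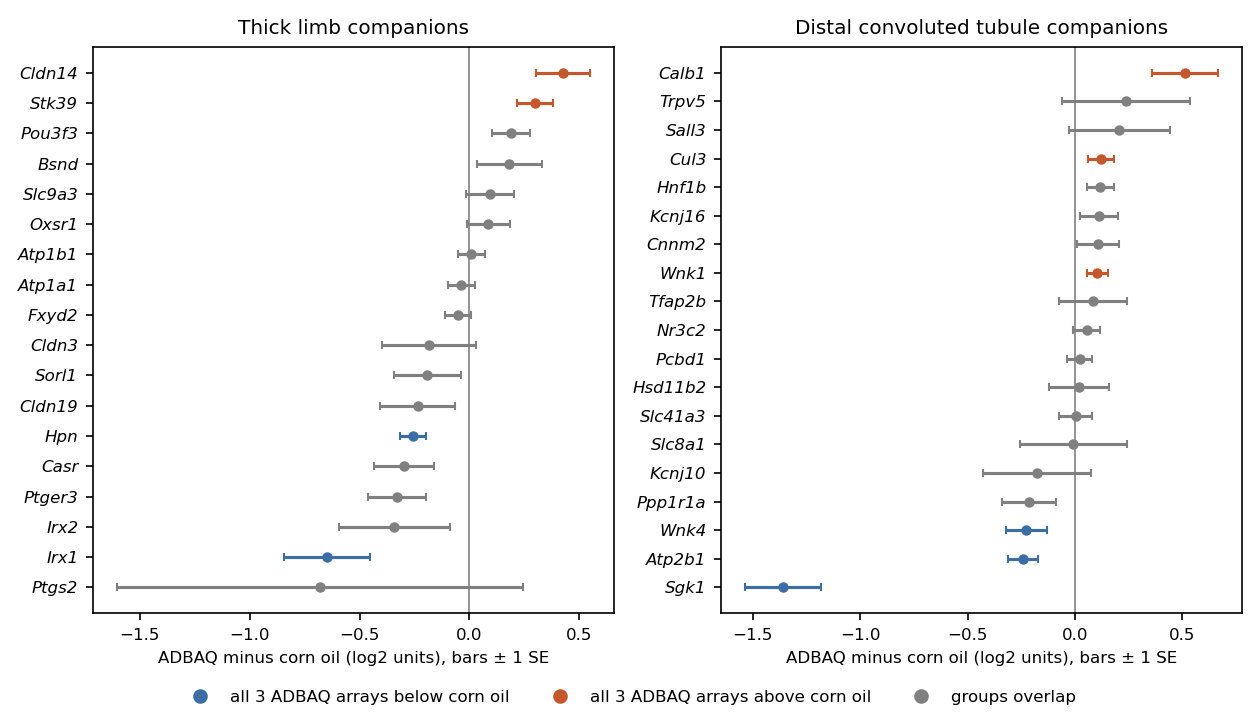
Difference in log2 signal between ADBAQ and corn oil (log2 units) for 18 of the 20 tested thick limb companions and the 19 tested distal convoluted tubule companions, with bars of ± 1 SE (n = 3 per group); blue and orange mark genes whose 3 ADBAQ arrays all lay below or above the corn oil arrays, grey marks overlap. Sgk1 lies lowest at -1.36, and the wide bar of Ptgs2 belongs to a probe that was well above background on 2 of 3 ADBAQ arrays.

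Across the 6 arrays, Umod and Cldn16 had the highest correlation among the 15 pairs of tested members, with a Pearson r of 0.73, or 0.70 when each array was taken as its deviation from its group mean. Both genes were highest on corn oil replicate 3. Cldn16 lay 0.88 above its mean on that array and -0.29 to -0.023 from it on all others, so this r leaned on 1 rat. All arrays share the scaling, and r over 6 arrays is a description. Slc12a3 did not follow Umod (r = 0.01), nor did Egf (-0.17) or Kcnj1 (-0.10). Kcnj1 and Cldn10 had an r of 0.85 within groups and -0.23 over all arrays.

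Over the 20 tested thick limb companions r with Umod ran from -0.68 to 0.89, above 0 for 11 and below 0 for 9. It was 0.89 for Irx2 and 0.74 for Irx1, transcription factors of the loop, 0.85 for Cldn3, 0.67 for Casr, 0.64 for Cldn19 and 0.63 for Sorl1, a sorting receptor. At the other end it was -0.68 for Stk39 and -0.59 for Oxsr1, a kinase related to SPAK. Few shared both extremes of Umod: Irx1, Irx2 and Cldn3 were highest on corn oil replicate 3 and lowest on ADBAQ replicate 2, while Casr was highest on corn oil replicate 2, Cldn19 lowest on corn oil replicate 1 and Sorl1 lowest on ADBAQ replicate 3. Irx1, Irx2, Cldn3, Cldn19, Sorl1 and Oxsr1 were picked after their values were seen. These r values use only the probe that stands for each gene. The other Irx2 probe had a difference of 0.86 ± 0.88 SE, against -0.34 on the probe used, and the other Sorl1 probe 0.033, against -0.19. Other probes of Irx1, Cldn3, Cldn19 and Oxsr1 kept the sign of the probe used. Corn oil replicate 3 was the highest array for 8 of the 20 thick limb companions (40.0%) and for 18.4% of all genes. It was also highest for 6 of 12 proximal tubule markers (50%), so this was not particular to the thick limb list. For the distal convoluted tubule companions it was highest for 3 of 19 (15.8%). The median deviation of the thick limb companions from their own means was 0.11 on that array, against -0.01 for the proximal tubule markers and 0.006 over all genes.

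Irx1 had the smallest p among Irx1, Irx2 and Cldn3, with relative levels of 1.82, 2.19 and 3.01 in corn oil and 1.61, 1.29 and 1.49 in ADBAQ. The difference was -0.65 ± 0.20 SE (adjusted p = 0.18), and -0.45 without corn oil replicate 3. The genes tested with the closest profile to Umod outside the members were Ly9, Lgr5 and Csnk1g3, with r of 0.989, 0.986 and 0.985, among 70 genes above 0.9. Those closest to Slc12a3 were Urb1, Podxl2 and Btbd10, with r of 0.996, 0.987 and 0.973, among 37 above 0.9. These genes were picked for the highest r among all genes tested, over only 6 arrays, so a high r follows from the choice. How many unrelated genes would pass 0.9 was not worked out, and these r values show no shared regulation. Ly9 had a difference of -0.35 and the other 5 lay between -0.10 and -0.029.

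**Figure D4:**
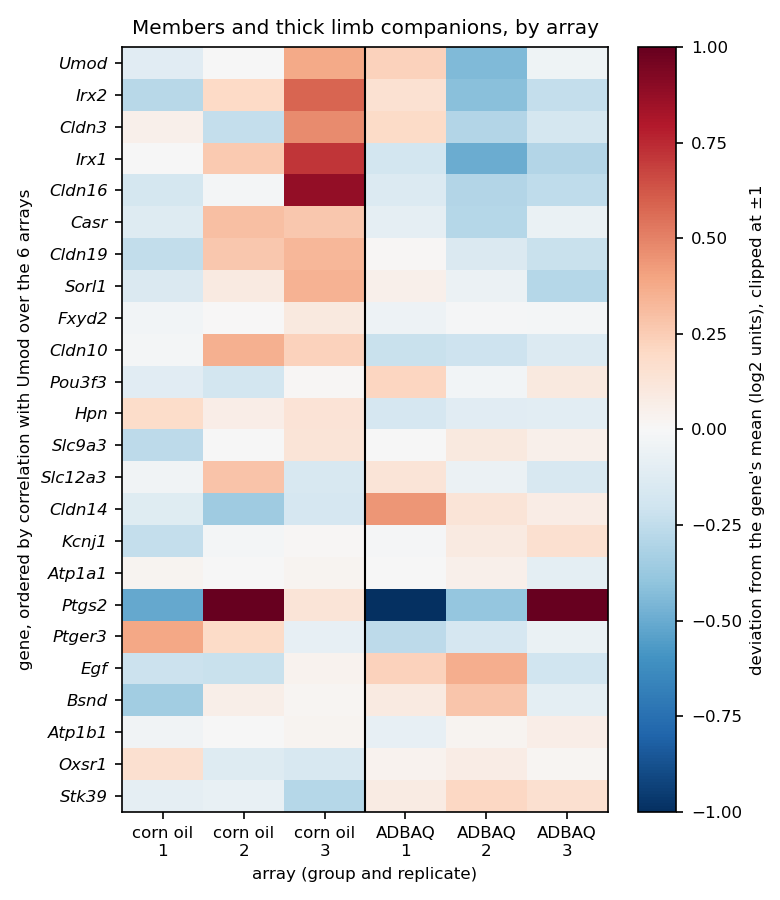
Deviation of each gene from its mean over the 6 arrays (log2 units, colour limits at ± 1, which Ptgs2 exceeds) for the 6 tested members and 18 of the 20 tested thick limb companions, by array, with genes ordered by their correlation with Umod. Umod, Irx2, Cldn3, Irx1, Cldn16, Cldn19 and Sorl1 are highest on the array of corn oil replicate 3, as are Slc9a3 and Fxyd2 by smaller amounts.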

How the data were processed

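Members and lists were chosen with earlier results of these data known. Renal cortex RNA of 6 rats was labelled with Cy3 and read on 1-colour arrays, per the labels' protocols. The deposited intensity values, read with Agilent Feature Extraction 10.7.1.1 per the file headers, are background-subtracted signals on a linear scale; deposited flags (other units) mark control, outlier, saturated and well-above-background spots. The authors' deposited table divides every signal by a single array constant, a ratio whose constant lay close to the 75th percentile (0.999 of it on each array), linear and not centred.

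Here 1319 control spots and 73 outlier probes were dropped. From each log2 signal its array's 75th percentile was subtracted. A probe stayed if flagged above background throughout at least 1 group (42256 of 61584). Accessions were named through RefSeq (GRCr8), which matched 27430 probes (44.5%) to 1 gene and none to several. The probe with the highest mean stands for a gene. The test was limma 3.58.1 under R 4.3.3 (two-sided, no covariates, Benjamini-Hochberg over all genes). Scripts were tested on simulated data. The labels call the 3 arrays per group biological replicates; their number limits the precision, and an exact permutation test of 3 against 3 cannot go below 0.10. Alternatives covered scaling, background correction, filters, probes, variances, a replicate block and each array left out. Sequences are from RefSeq. Of the thick limb companions, 2 are counted but not reported here by name. Motifs were chosen after the data were seen. Named genes were the members, per companion list the 3 smallest p and a set list, and the 3 closest profiles to Umod and to Slc12a3; genes of other lists were chosen after their values were seen.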

Additional observations from a re-analysis of the deposited data

How the results depend on the processing

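Over the 16 alternatives, 91 of 96 member values kept their direction and their side of the threshold, and 5 changed sign, none past it. Those were Umod without ADBAQ replicate 2 (-0.33 to 0.006 when 1 array was left out) and Slc12a3 without scaling (0.103), with the mean of its probes (0.106), and when corn oil replicate 2 or ADBAQ replicate 3 was left out (-0.155 to 0.07). The cause was not tested. The other Umod probe was at 0.001 without scaling, and Wnk1 was at -0.019 with normexp.

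Over all genes, the 27 higher and 8 lower genes became 1027 and 54 without scaling, 67 and 79 with normexp, and 72 and 84 with robust variances fitted on an intensity trend. Lower genes were 14 with the percentile over detected probes and 4 without the detection filter. Leaving out 1 array gave 8 to 27 higher and 1 to 10 lower. Of the companions, 5 were higher and 1 lower without scaling, 1 was lower with normexp and with the trend, and 0 to 1 lower when 1 array was left out (1 without ADBAQ replicate 3).

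With the replicate number as a block, limma called 0 and 0 genes, with 2269 at an unadjusted p under 0.05, and Cldn10 had an adjusted p of 0.21. The correlations of deviations between same-numbered arrays were 0.01, 0.15 and 0.05. They do not settle whether the numbers pair the rats, since arrays of unlike number were not compared. The Pvalb probe, not well above background on any array, limits that gene.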
